A study of Mus musculus with 24 samples.

Results

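The genes described here encode the enzymes that make CDP-diacylglycerol and turn it into phosphatidylinositol or cardiolipin. They were the 8 genes Cds1, Cds2, Tamm41, Pgs1, Ptpmt1, Crls1, Cdipt and Taz, taken by symbol from a table of 55401 genes in mouse kidney, left ventricle and skeletal muscle, and all 8 were found. The set was chosen on the age difference of Cds1 in left ventricle, so the comparison of ages in that tissue is given here as a description, without a test. Total RNA was sequenced after ribosomal RNA removal from 8 C57BL6/J mice. Of these, 4 were 86 weeks old (females O11 and O12, males O14 and O17) and 4 were 16.5 weeks old (females Y14 and Y15, males Y19 and Y20). Each mouse gave 1 library per tissue, so the 24 libraries formed 6 groups of 4. The labels give no genotype or treatment, and name neither the muscle nor the part of the kidney that was taken.

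CDP-diacylglycerol is an activated lipid made from phosphatidic acid and CTP, and it stands at a branch point of phospholipid synthesis. In the endoplasmic reticulum, CDS1 and CDS2 make it and CDIPT joins it to inositol to give phosphatidylinositol, the parent of the lipids that carry phospholipase C signals. In mitochondria, TAMM41 makes a separate pool. PGS1 turns that pool into phosphatidylglycerophosphate, PTPMT1 removes a phosphate to give phosphatidylglycerol, CRLS1 joins phosphatidylglycerol to another CDP-diacylglycerol to give cardiolipin, and tafazzin, the product of Taz, exchanges the acyl chains of cardiolipin. Cardiolipin is the characteristic lipid of the inner mitochondrial membrane, and loss of tafazzin in people causes Barth syndrome, a disease of heart and skeletal muscle.

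In the GENCODE M21 annotation of build GRCm38.p6, Cds1 (ENSMUSG00000029330.8) spans chr5:101765130-101823858 on the plus strand and Cds2 (ENSMUSG00000058793.14) spans chr2:132263148-132312050 on the plus strand. Tamm41 lies at chr6:115004381-115037876 on the minus strand, Pgs1 at chr11:117986292-118024011 on the plus strand and Crls1 at chr2:132846666-132866785 on the plus strand. Cdipt lies at chr7:126975914-126980501 and Taz at chrX:74281912-74290151, both on the plus strand. Ptpmt1 lies at chr2:90908716-90918258 on the minus strand, and 44.98% of its exon bases also belong to exons of Kbtbd4 on the opposite strand. The strand setting of the counting is not given in the sources used here, so reads of Ptpmt1 and Kbtbd4 cannot be told apart over those bases and every value of Ptpmt1 is uncertain. Cdipt shared 6.52% of its exon bases with Cdiptos on the opposite strand, and the overlaps of the other 6 genes with the exons of another gene reached at most 1.74%. Predicted transcripts Gm43272 and Gm43273 lie in introns of Cds1 on its own strand, are counted apart from it and are singled out here after their values were seen.

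The promoters of Cds1 and Cds2 are shown because the results turn on the different tissue patterns of these 2 genes of the same reaction. Both sequences are the 250 bases before the RefSeq transcription start on GRCm38.p6, plus strand, from 5′ to 3′. Capitals mark matches on either strand to the cAMP response element TGACGTCA, the GC box GGGCGG and the CCAAT box.
Cds1, chr5:101764880-101765129: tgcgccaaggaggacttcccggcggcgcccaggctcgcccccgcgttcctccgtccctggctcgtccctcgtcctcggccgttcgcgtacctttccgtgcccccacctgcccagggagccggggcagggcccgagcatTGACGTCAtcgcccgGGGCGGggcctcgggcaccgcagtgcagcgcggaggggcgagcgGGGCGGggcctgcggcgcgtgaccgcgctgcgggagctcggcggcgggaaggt
Cds2, chr2:132262898-132263147: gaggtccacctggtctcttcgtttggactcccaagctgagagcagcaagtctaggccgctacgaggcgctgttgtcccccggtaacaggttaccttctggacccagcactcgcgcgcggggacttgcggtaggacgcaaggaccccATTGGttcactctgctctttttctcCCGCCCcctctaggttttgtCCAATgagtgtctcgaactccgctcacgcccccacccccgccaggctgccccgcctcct
The Cds1 window was 77.6% G or C with 37 CpG dinucleotides, and the Cds2 window was 62.4% G or C with 17, against medians of 52.4% and 6 over 32851 RefSeq promoters of the same length. Counted from the start site, Cds1 had a cAMP response element from -112 to -105 and GC boxes beginning at -97 and -53. TGACGTCA was found in 1.55% of all promoters and the GC box in 32.7%. Cds2 had CCAAT boxes beginning at -104 and -59, a motif found in 33.9% of all promoters, and a GC box beginning at -79. The E-box CACGTG (6.02% of all promoters), the ERR motif AAGGTCA (4.08%) and the TATA box TATAAA (12.4%), also searched on both strands, were in neither window. RefSeq lists a further Cds2 start inside the gene, which is not shown. Promoters were matched for 6 of the 8 genes, all but Tamm41 and Cdipt.

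Libraries held 52.6 to 103.8 M counts. Marker genes were highest in the labelled tissue. The summed level of 8 cardiomyocyte markers was at least 48020.0 CPM in left ventricle and at most 684.8 CPM elsewhere, that of 9 skeletal muscle fibre markers was at least 127700.0 CPM in skeletal muscle and at most 827.9 CPM elsewhere, and that of 9 kidney epithelium markers was at least 11470.0 CPM in kidney and at most 128.6 CPM elsewhere. Traces of other tissues stood out in single libraries. In skeletal muscle of mouse O17 the cardiac myosin gene Myh6 was at 341.9 CPM, in left ventricle of Y15 the fast muscle myosin gene Myh4 was at 28.04 CPM, and in skeletal muscle of Y19 the kidney gene Umod was at 19.28 CPM. Xist was at 300.3 CPM or more in every female library and at 9.28 CPM or less in every male library, so the sex labels held. In bulk tissue, fewer cells of a type and less RNA per cell cannot be told apart.

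Levels were compared between genes as CPM per kilobase of exon, where CPM are counts scaled to the library size and normalised by TMM over all 24 libraries. In kidney Cds2 led at 9.99 ± 1.01 CPM per kilobase (SD, n = 8), followed by the cardiolipin synthase gene Crls1 at 8.78 ± 1.35, Cds1 at 7.97 ± 0.967 and the phosphatidylinositol synthase gene Cdipt at 7.13 ± 0.559. Each of these 4 overlapped its neighbour in that order. Taz at 5.38, Pgs1 at 4.18, Ptpmt1 at 2.87 and Tamm41 at 1.72 CPM per kilobase came lower. In left ventricle Cds2 stood above all others at 16.0 ± 1.88 CPM per kilobase, and its lowest library, at 14.1, exceeded the highest of any other member there. Taz followed at 5.27, Crls1 at 5.14, Cdipt at 4.39 and Pgs1 at 3.25 CPM per kilobase, with Ptpmt1 at 2.18, Cds1 at 2.14 and Tamm41 at 1.14 lowest. In skeletal muscle the highest members were close to each other. Crls1 was at 5.34, Taz at 5.12, Cds2 at 3.88, Ptpmt1 at 3.84, Pgs1 at 3.43 and Cdipt at 3.26 CPM per kilobase, while Tamm41 was at 1.05 and Cds1 was lowest at 0.700. Cds1 therefore ranked 3 of 8 in kidney, 7 of 8 in left ventricle and 8 of 8 in skeletal muscle. The length used matters for some of these ranks: per kilobase of the longest transcript, Taz took rank 2 in kidney, at 9.97, and rank 1 in skeletal muscle, at 9.51, and Cds1 took rank 5 in kidney.

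**Figure D1:**
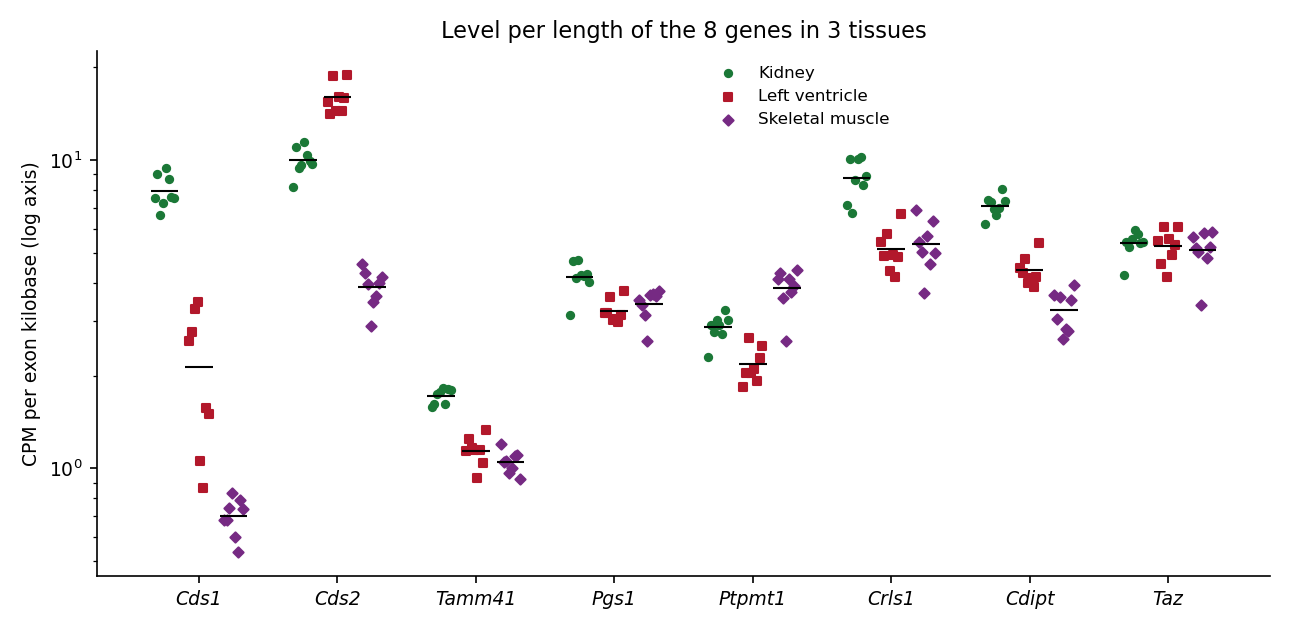
Level of each of the 8 genes per library, in CPM per kilobase of exon on a log axis, with kidney, left ventricle and skeletal muscle side by side (8 libraries each) and bars at the means. Cds1 separates the tissues most widely, from 7.97 in kidney through 2.14 in left ventricle to 0.700 in skeletal muscle, while Taz lies between 5.12 and 5.38 in all of them.

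The tissues were then compared gene by gene over both ages, in a fit of all 24 libraries with a mean for each tissue and age and a sex term in each tissue (edgeR quasi-likelihood test, adjusted p over 46984 genes). Between kidney and left ventricle 7 of the 8 genes passed the test, 6 higher and 1 lower in kidney, where 33.6% of all genes tested passed it (19.3% higher and 14.3% lower). Between kidney and skeletal muscle 7 of 8 passed, 6 higher and 1 lower in kidney, where 43.5% of all genes did (22.1% higher and 21.4% lower). Between left ventricle and skeletal muscle 4 of 8 passed, 3 higher and 1 lower in left ventricle, against 26.6% of all genes (15.4% higher and 11.3% lower). These shares of all genes depend on the low-count filter. With genes kept only at 1 CPM in 4 libraries, 15615 of 22801 genes passed between kidney and left ventricle. Between kidney and skeletal muscle 18125 of them passed, and between left ventricle and skeletal muscle 13141. The median log2 difference of the 8 genes was 0.50 for kidney over left ventricle, 0.71 for kidney over skeletal muscle and 0.08 for left ventricle over skeletal muscle, beside medians over all genes of -0.10, -0.23 and -0.12.

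Of the genes that make CDP-diacylglycerol, Cds1 and Cds2 were ordered differently across the tissues. Cds1 ranged from 26.2 to 37.2 CPM in kidney (median 29.9), from 3.40 to 13.6 CPM in left ventricle (median 8.21) and from 2.11 to 3.28 CPM in skeletal muscle (median 2.80). No library of one tissue overlapped another. Cds1 was 4.14-fold higher in kidney than in left ventricle (log2 2.05 ± 0.08, SE, adjusted p = 4.5e-18), 11.4-fold higher in kidney than in skeletal muscle (3.51 ± 0.08, adjusted p = 2.04e-22) and 2.76-fold higher in left ventricle than in skeletal muscle (1.46 ± 0.08, adjusted p = 3.06e-14). These folds average over ages that were unlike in left ventricle. As a description, the ratio of mean CPM for kidney over left ventricle was 2.52 at 86 weeks and 6.66 at 16.5 weeks, that for left ventricle over skeletal muscle was 4.13 and 1.88, and that for kidney over skeletal muscle was 10.39 and 12.5 at those ages. Cds2 ranged from 74.7 to 104.8 CPM in kidney (median 89.9), from 129.0 to 173.0 CPM in left ventricle (median 143.3) and from 26.4 to 42.1 CPM in skeletal muscle (median 36.3), again without overlap. Here left ventricle, not kidney, was highest. Cds2 was 0.624-fold in kidney relative to left ventricle (-0.68 ± 0.09, adjusted p = 9.23e-07), 2.58-fold higher in kidney than in skeletal muscle (1.36 ± 0.10, adjusted p = 1.86e-12) and 4.13-fold higher in left ventricle than in skeletal muscle (2.05 ± 0.10, adjusted p = 1.51e-15). Tamm41, the mitochondrial CDP-diacylglycerol synthase gene, averaged 9.07 ± 0.517 CPM in kidney, 6.03 ± 0.635 CPM in left ventricle and 5.54 ± 0.458 CPM in skeletal muscle (SD, n = 8 each). It was higher in kidney than in left ventricle (log2 0.59 ± 0.08, adjusted p = 1.28e-06) and than in skeletal muscle (0.71 ± 0.08, adjusted p = 4.59e-08), and the 2 muscle tissues differed by 0.12 ± 0.08 (adjusted p = 0.332).

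Cdipt, which uses CDP-diacylglycerol for phosphatidylinositol, averaged 18.5 ± 1.45 CPM in kidney, 11.4 ± 1.27 CPM in left ventricle and 8.44 ± 1.24 CPM in skeletal muscle. The 3 log2 differences were 0.70 ± 0.09 for kidney over left ventricle, 1.13 ± 0.09 for kidney over skeletal muscle and 0.43 ± 0.09 for left ventricle over skeletal muscle, and all passed the test (adjusted p = 3.54e-07, 4.29e-11 and 4.77e-04 in edgeR).

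Besides Tamm41, the genes of the mitochondrial branch are Pgs1, Ptpmt1, Crls1 and Taz, and they differed less between tissues than Cds1. For Pgs1, Crls1 and Taz the interval between left ventricle and skeletal muscle held 0, as it did for Tamm41 (-0.05 to 0.30). An unadjusted p under 0.05 was reached by 15889 of 46984 genes in this edgeR comparison. Most genes therefore had such an interval, and it is not read as a trait of this branch. Pgs1, which makes phosphatidylglycerophosphate, averaged 22.3 ± 2.61 CPM in kidney, 17.3 ± 1.48 CPM in left ventricle and 18.3 ± 2.08 CPM in skeletal muscle. Its log2 difference was 0.37 ± 0.08 for kidney over left ventricle (adjusted p = 9.54e-04) and 0.29 ± 0.08 for kidney over skeletal muscle (adjusted p = 0.00633). With genes kept only at 1 CPM in 4 libraries, Pgs1 was 0.08 higher in kidney than in skeletal muscle and no longer passed (adjusted p = 0.223), while its difference of left ventricle over skeletal muscle was -0.18 and passed (adjusted p = 0.0141). Crls1 averaged 18.3 ± 2.81 CPM in kidney, 10.7 ± 1.68 CPM in left ventricle and 11.1 ± 2.06 CPM in skeletal muscle. It was higher in kidney by 0.77 ± 0.11 over left ventricle (adjusted p = 3.05e-06) and by 0.71 ± 0.11 over skeletal muscle (adjusted p = 8.12e-06). Taz was at 28.8 ± 2.77 CPM in kidney, 28.3 ± 3.58 CPM in left ventricle and 27.5 ± 4.26 CPM in skeletal muscle. Its log2 differences were 0.03 (95% interval -0.17 to 0.23) for kidney over left ventricle, 0.07 (-0.13 to 0.27) for kidney over skeletal muscle and 0.05 (-0.16 to 0.25) for left ventricle over skeletal muscle. The same intervals for left ventricle over skeletal muscle were -0.25 to 0.10 for Pgs1 and -0.29 to 0.18 for Crls1.

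With TMM, Ptpmt1, the phosphatase gene whose exons overlap Kbtbd4, was the only member with a higher mean in skeletal muscle than in the other tissues. It averaged 10.6 ± 1.05 CPM in kidney, 8.01 ± 1.04 CPM in left ventricle and 14.2 ± 2.12 CPM in skeletal muscle. It was 0.566-fold in left ventricle relative to skeletal muscle (log2 -0.82 ± 0.09, adjusted p = 4.07e-08), 0.749-fold in kidney relative to skeletal muscle with TMM (-0.42 ± 0.09, adjusted p = 4.71e-04, a sign that turned with library totals) and 1.32-fold higher in kidney than in left ventricle (0.40 ± 0.09, adjusted p = 8.02e-04). Kbtbd4 itself was at 5.91 ± 0.781, 6.28 ± 0.586 and 6.33 ± 0.651 CPM in the same 3 tissues.

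How libraries were scaled moved the small tissue differences. Scaling to library totals without TMM shifted the median of all genes by 0.27 for kidney over left ventricle, 0.59 for kidney over skeletal muscle and 0.32 for left ventricle over skeletal muscle. Under it 8 of 8 genes passed in each comparison, with 7 higher and 1 lower in kidney than in left ventricle, 8 higher and 0 lower in kidney than in skeletal muscle, and 7 higher and 1 lower in left ventricle than in skeletal muscle. Of all 46984 genes, 12452 were called higher and 3928 lower in kidney than in left ventricle. For kidney over skeletal muscle 16363 were higher and 2465 lower, and for left ventricle over skeletal muscle 11500 were higher and 2646 lower. All genes thus leaned the same way under this scaling, and nothing is read from the member counts. Ptpmt1 then stood 0.19 higher in kidney than in skeletal muscle (adjusted p = 0.0152), a change of sign. Set against the median of all genes, it stood at -0.18 with TMM and -0.17 without it. Taz stood at 0.31 and 0.33 above that median for kidney over skeletal muscle, and Cds1 at 3.75 under both. Scaling moves all genes of a library alike, so the likeness of these pairs of values follows from the method and shows no stability.

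**Figure D2:**
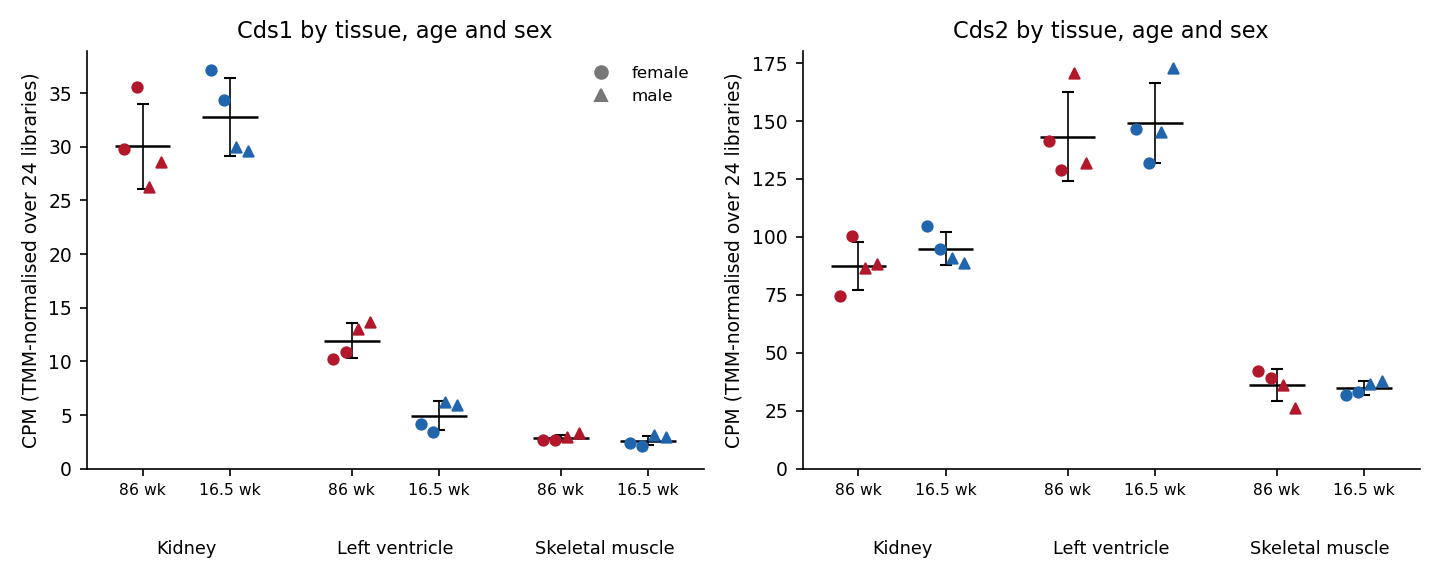
Cds1 (left panel) and Cds2 (right panel) in CPM for each library, with 86-week groups (red) left of 16.5-week groups (blue), circles for females, triangles for males, bars at the mean and whiskers of 1 SD (n = 4). Cds1 is highest in kidney, at 26.2 to 37.2 CPM, while Cds2 is highest in left ventricle, at 129.0 to 173.0 CPM.

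The balance of the 2 endoplasmic reticulum synthases was expressed as the share of Cds1 in the sum of Cds1 and Cds2 per kilobase of exon. It averaged 44.35 ± 2.05% in kidney, 11.7 ± 5.23% in left ventricle and 15.5 ± 3.08% in skeletal muscle (SD, n = 8 mice). The share was higher in kidney than in left ventricle in 8 of 8 mice, by 32.7 ± 5.95 percentage points (SD of the paired differences), and higher in kidney than in skeletal muscle in 8 of 8 mice, by 28.9 ± 4.61 points. An exact two-sided paired permutation test gave p = 0.00781 for both, the smallest that 8 pairs allow, and 0.0117 after Benjamini-Hochberg adjustment over 3 comparisons. Between left ventricle and skeletal muscle the share differed by -3.84 ± 4.53 points and was higher in left ventricle in 2 of 8 mice (exact paired permutation p = 0.0703, adjusted 0.0703). The ages were unlike in this comparison: at 86 weeks the difference was 0.093 points on average and ran from -3.04 to 2.698, while at 16.5 weeks it was -7.76 points and ran from -8.60 to -7.25, below 0 in all 4 mice. These values by age include the left ventricle age contrast and are a description. Without mouse O11 or O12 this difference was -4.60 or -4.77 points and passed the threshold (adjusted exact p = 0.0469). The sum itself was 18.0 ± 1.87 CPM per kilobase in kidney, 18.2 ± 2.12 in left ventricle and 4.58 ± 0.536 in skeletal muscle. With TMM scaling the sums of kidney and left ventricle differed by less than 1 SD. Unlike the share, the sums depend on how libraries are scaled. The TMM factors were 1.112 to 1.511 in kidney and 0.871 to 1.134 in left ventricle, and a larger factor lowers every CPM value of a library. The likeness of these sums under other scalings was not tested.

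**Figure D3:**
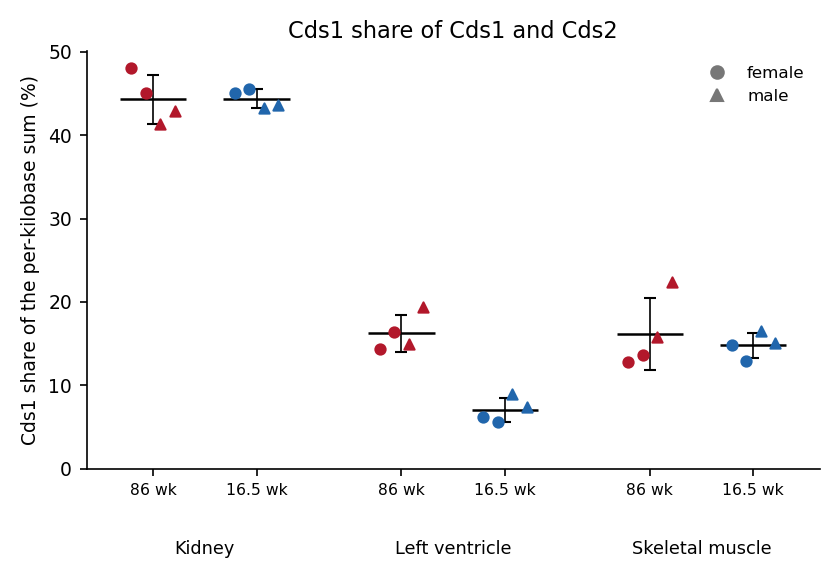
Share of Cds1 in the per-kilobase sum of Cds1 and Cds2, in percent, for each library by tissue and age, with bars at the mean and whiskers of 1 SD (n = 4). Kidney lies between 41.3 and 48.0%, 86-week left ventricle between 14.4 and 19.3% and 16.5-week left ventricle between 5.63 and 8.97%.

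In left ventricle Cds1 stood apart from the other 7 genes between the ages. It was at 10.2 and 10.9 CPM in the females and 13.0 and 13.6 CPM in the males at 86 weeks, against 4.17 and 3.40 CPM in the females and 6.18 and 5.93 CPM in the males at 16.5 weeks. Every 86-week ventricle was above every 16.5-week ventricle. The fit of the 8 left ventricle libraries with terms for age and sex gave a log2 difference of 1.31 ± 0.13 (SE), which is 2.47-fold with a 95% interval of 2.05 to 2.98. It lay between 1.22 and 1.36 when each mouse was left out in turn. Cds2 was at 141.4, 129.0, 170.9 and 131.7 CPM at 86 weeks and at 146.6, 132.1, 145.3 and 173.0 CPM at 16.5 weeks, fully overlapping, with a log2 difference of -0.06 ± 0.11. The other 6 genes lay between -0.10 ± 0.12 (Taz) and 0.08 ± 0.13 (Tamm41), and their groups overlapped. An adjusted p under 0.05 for Cds1 here is what the set was chosen on, so its count of 1 of 8, beside 0.0741% of 44546 genes, is fixed by that choice and nothing is read from it. The share of Cds1 averaged 16.3 ± 2.22% at 86 weeks and 7.04 ± 1.48% at 16.5 weeks in left ventricle, a difference of 9.22 points, while the sum of both genes was 18.7 ± 2.26 and 17.6 ± 2.13 CPM per kilobase.

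Several levels were measured beside this difference. The kidney epithelium markers summed to 14.8 to 35.7 CPM in 86-week and 16.8 to 77.6 CPM in 16.5-week left ventricle. That is at most 0.511% of their level in kidney, and the same percent of the kidney level of Cds1 is 0.161 CPM. The intronic transcripts Gm43272 and Gm43273 were at 0.899 ± 0.386 and 0.971 ± 0.461 CPM at 86 weeks and at 0.619 ± 0.196 and 1.11 ± 0.294 CPM at 16.5 weeks. The summed cardiomyocyte markers ranged from 48020.0 to 66480.0 CPM at 86 weeks and from 56640.0 to 68400.0 CPM at 16.5 weeks. All 7 atrial markers had a positive age difference, with a median log2 difference of 1.32. Their sum ranged from 31.6 to 230.8 CPM (median 167.1) at 86 weeks and from 40.2 to 175.8 CPM (median 46.9) at 16.5 weeks. These sums overlapped between the ages, and the lowest was at 86 weeks. Of the 10 macrophage markers 9 were positive, with a median of 0.40, and their sum ranged from 172.1 to 260.5 CPM (median 238.8) at 86 weeks and from 169.0 to 202.8 CPM (median 181.4) at 16.5 weeks. Of the 8 Schwann cell and nerve markers 7 were positive, with a median of 0.18, and their sums did not overlap, at 42.7 to 50.7 CPM at 86 weeks and 34.3 to 41.6 CPM at 16.5 weeks. Mal, which is on this list, averaged 13.95 CPM at 86 weeks and 9.947 CPM at 16.5 weeks and so made up a large part of the difference between these sums. Fibroblast markers, 4 of 6 positive, ranged from 409.0 to 768.4 CPM at 86 weeks and from 510.1 to 712.7 CPM at 16.5 weeks. None of the markers in these 6 lists passed the age test in left ventricle, and none was at 0 summed over a group. The part of these lists in the Cds1 difference was not tested.

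The genes most like Cds1 over the 8 left ventricle libraries, by Pearson r of log2 CPM among 15165 genes, were Myot (r = 0.965), Cpxm2 (0.963), Amy1 (0.957), Mfsd4a (0.950) and Hpse (0.950). These points share 2 ages and 2 sexes, so r largely follows the group means. Myot, which encodes the Z-disc protein myotilin, was at 60.1 ± 11.7 CPM at 86 weeks and 25.1 ± 10.7 CPM at 16.5 weeks. Cpxm2, a carboxypeptidase-like gene, was at 50.7 ± 6.14 and 24.7 ± 9.96 CPM, and Hpse, the heparanase gene, at 2.45 ± 0.0773 and 1.73 ± 0.122 CPM at those ages.

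In skeletal muscle and kidney the age comparison did not enter the choice of the genes, and none of the 8 passed the test in either tissue. In skeletal muscle 0 of 8 genes were called by edgeR, DESeq2 or limma-voom and 0 had an unadjusted p under 0.05, where 0.0183% of 43711 genes were called by edgeR. Cds1 was at 2.68, 2.68, 2.93 and 3.28 CPM at 86 weeks and 2.36, 2.11, 3.10 and 2.91 CPM at 16.5 weeks, with females before males, and the groups overlapped. Its log2 difference was 0.19 ± 0.15 (95% interval -0.14 to 0.52). Cds2 differed by 0.07 ± 0.13. The smallest p belonged to Pgs1, at 16.9 ± 2.21 CPM at 86 weeks and 19.7 ± 0.314 CPM at 16.5 weeks (log2 -0.20 ± 0.10, adjusted p = 0.939). Its groups did not overlap with TMM scaling, and mouse O17 was lowest at 13.8 CPM. That library also held the lowest skeletal muscle values of Cds2 (26.4 CPM), Crls1 (7.75 CPM), Ptpmt1 (9.52 CPM), Cdipt (6.84 CPM) and Taz (18.2 CPM), but the highest of Cds1 (3.28 CPM). The TMM factor of the O17 library was 1.042, beside 0.731 to 0.821 in the other skeletal muscle libraries. A larger factor lowers every CPM value of a library. The O17 library also held the Myh6 trace. Whether its low values are linked to the trace or to the scaling was not tested.

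In kidney 0 of 8 genes were called by edgeR, DESeq2 or limma-voom and 0 had an unadjusted p under 0.05, where 0.112% of 44572 genes were called by edgeR. Cds1 was at 29.8, 35.6, 26.2 and 28.6 CPM at 86 weeks and 37.2, 34.3, 30.0 and 29.6 CPM at 16.5 weeks, again with females first and overlapping. Its log2 difference was -0.09 ± 0.08 (95% interval -0.26 to 0.08) and that of Cds2 was -0.08 ± 0.09. The largest was that of Crls1, at 16.96 ± 3.16 CPM at 86 weeks and 19.6 ± 1.97 CPM at 16.5 weeks (-0.17 ± 0.10, adjusted p = 0.723). The other 5 lay between -0.11 and 0.03. The age difference of Cds1 in kidney minus that in skeletal muscle was -0.28 ± 0.16 (edgeR adjusted p = 1). For this contrast 0 of 8 genes were called by edgeR, DESeq2 or limma-voom, beside 0.0128% of all genes in edgeR, and 0 had an unadjusted p under 0.05. The share of Cds1 averaged 16.2 ± 4.32% at 86 weeks and 14.8 ± 1.47% at 16.5 weeks in skeletal muscle (exact permutation p = 0.743, adjusted 0.971), a difference of 1.37 points that became -0.704 points without O17. In kidney it averaged 44.3 ± 2.91% and 44.4 ± 1.13% (exact permutation p = 0.971, adjusted 0.971). These tests are two-sided, and 4 against 4 mice allow no p below 0.0286.

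**Figure D4:**
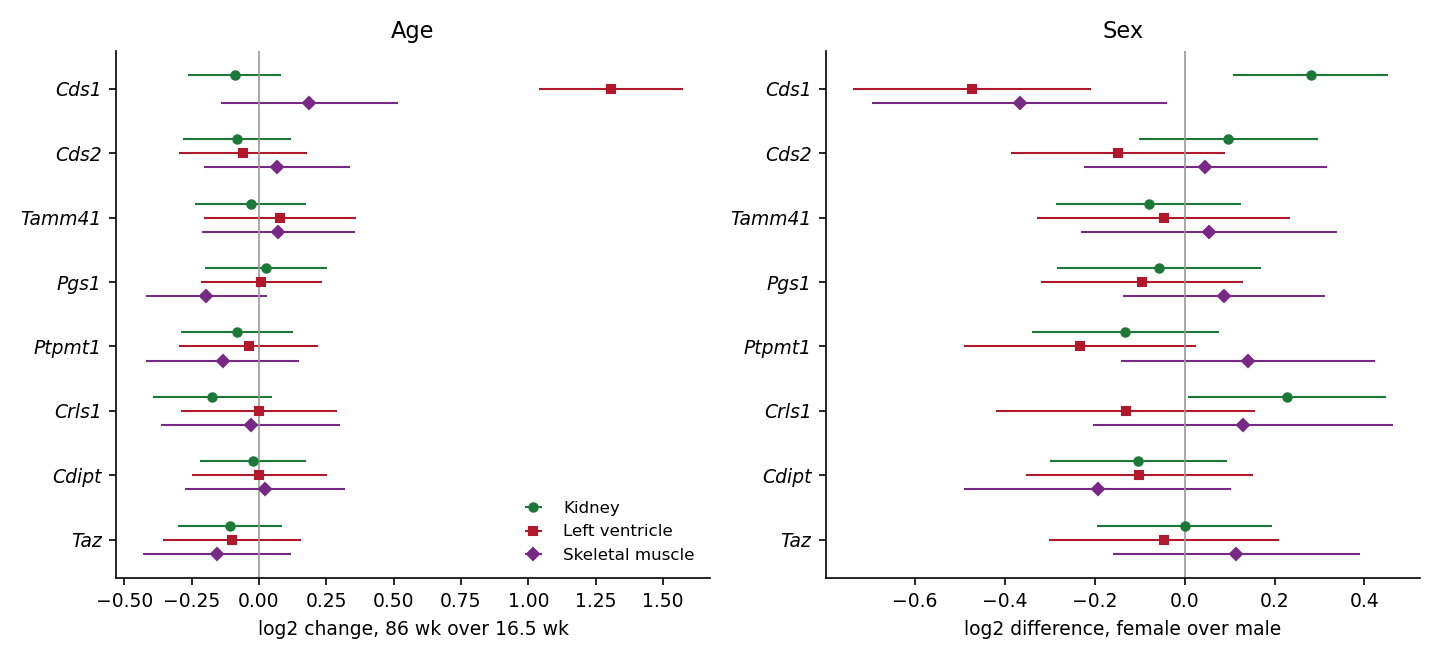
Log2 differences of the 8 genes for 86 over 16.5 weeks (left panel) and for female over male (right panel), fitted within kidney, left ventricle and skeletal muscle, with 95% intervals. For age, Cds1 in left ventricle, on which the set was chosen, stands at 1.31, and for sex the Cds1 interval lies above 0 in kidney and below 0 in left ventricle and skeletal muscle.

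Between the sexes Cds1 was also the member that differed most, and in opposite directions. At both ages, both females were above both males in kidney, and both females were below both males in left ventricle as well as in skeletal muscle. The share of all genes with such an order is not given here, so the order is a description. An unadjusted p under 0.05 for sex in edgeR was reached by 17.1% of all genes in kidney, 5.10% in left ventricle and 9.625% in skeletal muscle. In kidney Cds1 averaged 34.2 ± 3.19 CPM in females and 28.6 ± 1.69 CPM in males (SD, n = 4 each), 1.21-fold higher in females (log2 0.28 ± 0.08, edgeR adjusted p = 0.0491). It was the 1 of 8 genes called for sex in kidney, where 7.58% of 44572 genes were called. The call was borderline: it was kept without O11 and lost without any of O12, O14, O17, Y14, Y15, Y19 and Y20, at 0.24 to 0.30 with adjusted p = 0.0963 to 0.152, and it was lost under 6 of the other settings. In left ventricle Cds1 averaged 7.18 ± 3.94 CPM in females and 9.681 ± 4.199 CPM in males, ages pooled, and with age in the fit it was -0.47 ± 0.13 in females relative to males (edgeR adjusted p = 0.129). In skeletal muscle it averaged 2.46 ± 0.274 CPM in females and 3.06 ± 0.174 CPM in males (-0.37 ± 0.15, edgeR adjusted p = 0.447). In left ventricle 0 of 8 genes were called by edgeR, DESeq2 or limma-voom, where edgeR called 0.871% of all genes, and 1 had an unadjusted p under 0.05. In skeletal muscle 0 of 8 were called by these tools, where edgeR called 1.36%, and 1 had an unadjusted p under 0.05 in edgeR. A single fit of all 24 libraries called Cds1 in left ventricle (-0.50, adjusted p = 0.0111) and not in kidney (0.26, adjusted p = 0.224).

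The difference between the tissues was tested after this pattern was seen. The comparison with left ventricle also uses the 8 libraries whose age difference led to the choice of Cds1. Its p-values are therefore given as a description. The female over male difference of Cds1 was 0.76 ± 0.15 higher in kidney than in left ventricle (edgeR adjusted p = 0.0052), and Cds1 was the 1 of 8 genes called, where 1.3% of all genes were. Without mouse Y19 it was 0.71 with an adjusted p of 0.0516. Against skeletal muscle the difference was 0.57 ± 0.16 (edgeR adjusted p = 0.0562), and 0 of 8 genes were called, beside 1.93% of all genes and 1 gene with an unadjusted p under 0.05. Scaled to library totals it was 0.76 (adjusted p = 0.00292). The kidneys of the sexes also differed in several marker lists. The 11 collecting duct and distal tubule markers summed to 1818 to 2267 CPM in females and 1215 to 1552 CPM in males, with 6 of the 11 called higher and 1 lower in females. The 8 proximal tubule markers overlapped, at 8523 to 12700.0 CPM in females and 9038 to 11270.0 CPM in males, with 2 called higher and 2 lower in females. Schwann cell and nerve markers did not overlap, with 126.9 to 145.3 CPM for females and 91.2 to 107.7 CPM for males and 2 of 8 called higher in females. Mal, which is on this list, averaged 95.2 CPM in kidney, so the sum was largely that of 1 gene. Mal was also among the genes most like Cds1 over all 24 libraries, so this sum is not read as a level of nerve. Endothelial and fibroblast markers each had 2 called higher and 0 lower in females, and their sums overlapped. Adipocyte markers had a median log2 difference of 1.60 with 1 of 8 called higher, and summed to 1600.0 to 2699 CPM for females and 1119 to 1636 CPM for males. This list includes Pck1, and it summed to at most 499.0 CPM in the other tissues. The kidney sum was not divided by gene and is not read as an amount of fat. The part of these markers in the Cds1 difference was not tested. In skeletal muscle the trace of kidney markers was largest in male Y19, at 0.848% of the kidney level, and the same percent of kidney Cds1 is 0.266 CPM. Cds1 of that library was at 3.10 CPM, beside at most 2.36 CPM in females of its age. The part of the trace in this value was not tested.

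Crls1 was the only other member with an unadjusted p under 0.05 for sex in kidney, with 19.6 ± 3.13 CPM among females and 16.97 ± 2.01 CPM among males (log2 0.23 ± 0.10, edgeR adjusted p = 0.267). With libraries scaled to their totals it was called (0.31, adjusted p = 0.0228). The other 6 members lay between -0.13 and 0.10 in kidney.

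The genes were also compared by how they varied together from library to library within a tissue. Over the 21 pairs without Cds1, the median Pearson r of log2 CPM was 0.59 in kidney, 0.73 in left ventricle and 0.65 in skeletal muscle (8 libraries each). Over the 7 pairs with Cds1 it was 0.22, 0.19 and -0.29 in these tissues. The medians cover a wide range of pairs. In kidney Cds1 had an r of 0.87 with Crls1 and 0.73 with Cds2, and -0.21 with Tamm41, while Tamm41 and Crls1 had -0.01. In left ventricle r with Cds1 takes in the age difference on which the set was chosen. These libraries share tissue, scaling and mice, and the values are a description. Over all 24 libraries, where the 3 tissues set most of the variation, the genes most like Cds1 among 16204 were Acsm5, a medium-chain acyl-CoA synthetase gene (r = 0.979), Mal, a membrane proteolipid gene (0.974), and Abat, the GABA transaminase gene (0.971). Acsm5 averaged 80.9 CPM in kidney, 6.78 CPM in left ventricle and 1.57 CPM in skeletal muscle. In left ventricle it was at 9.19 ± 2.04 CPM at 86 weeks and 4.38 ± 1.63 CPM at 16.5 weeks. Mal, which is also on the Schwann cell and nerve list, was at 13.95 ± 2.101 CPM at 86 weeks and 9.947 ± 2.824 CPM at 16.5 weeks there. Those most like Cds2 were Ctnna1, the alpha-catenin gene (0.992), Etfb, a subunit of the electron transfer flavoprotein (0.990), and Pacsin2 (0.989). Ctnna1 averaged 234.4 CPM in kidney, 445.2 CPM in left ventricle and 59.1 CPM in skeletal muscle.

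The neighbouring steps of phospholipid synthesis were followed in 5 lists with 79 genes, all of which were tested. For age, edgeR called 0 of the 79 in each tissue, while an unadjusted p under 0.05 was reached by 15 in kidney (18.99%, beside 7.96% of all genes), 1 in left ventricle (1.27%, beside 3.37%) and 11 in skeletal muscle (13.9%, beside 5.51%). With genes kept only at 1 CPM in 4 libraries, 2957 of 20531 genes reached such a p in kidney. The counts were 1367 of 19365 in left ventricle and 1508 of 17905 in skeletal muscle. DESeq2 and limma-voom each called 1 of the 79 in kidney and 0 in the other tissues. The nearest to the threshold was Gpam, the mitochondrial glycerol-3-phosphate acyltransferase gene that starts phosphatidic acid synthesis, at -0.56 ± 0.10 in 86-week relative to 16.5-week kidney (edgeR adjusted p = 0.068). Gpat3, another acyltransferase gene of that step, was at 0.64 ± 0.17 in skeletal muscle (adjusted p = 0.532), and Plcd3, a phospholipase C gene, at -0.31 ± 0.12 in left ventricle (adjusted p = 0.9997). The median age differences of the 5 lists lay between -0.14 and 0.02, beside medians of all genes of 0.01 to 0.02.

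Between tissues edgeR called 53 of the 79 genes for kidney against left ventricle (67.1%, beside 33.6% of all genes), 63 for kidney against skeletal muscle (79.7%, beside 43.5%) and 61 for left ventricle against skeletal muscle (77.2%, beside 26.6%). With genes kept only at 1 CPM in 4 libraries, 15615, 18125 and 13141 of 22801 genes were called in the same order. The shares of the lists are therefore not read as an excess over all genes. Of the 21 genes of phosphatidic acid supply, 10 were higher and 3 lower in kidney than in left ventricle, and 9 were higher and 5 lower in left ventricle than in skeletal muscle. The diacylglycerol kinase genes Dgkg (1.98 ± 0.12) and Dgkq (1.64 ± 0.10) were higher in kidney than in left ventricle, and Dgke, whose product prefers arachidonoyl diacylglycerol, was lower (-1.50 ± 0.10). Of the 6 phosphatidic acid phosphatase genes, which draw on the substrate of CDS1 and CDS2, 3 were higher and 2 lower in kidney than in left ventricle. Plpp2 (3.26 ± 0.14) and Lpin2 (2.62 ± 0.08) were higher in kidney and Lpin1 lower (-1.22 ± 0.12). Of the 25 phosphatidylinositol cycle genes, 18 were higher and 4 lower in left ventricle than in skeletal muscle, including Pip5k1b (3.80 ± 0.13) and the phospholipase C genes Plce1 (2.29 ± 0.11) and, lower, Plcd4 (-5.35 ± 0.15). Of the 13 genes of mitochondrial lipid transfer and cardiolipin remodelling, 8 were higher and 2 lower in left ventricle than in skeletal muscle. Hadha, whose product also has an acyltransferase activity on cardiolipin, was higher by 2.55 ± 0.10 there, and Lclat1, the lysocardiolipin acyltransferase gene, by 2.398 ± 0.10. Prelid1, whose product carries phosphatidic acid to the inner mitochondrial membrane, was higher by 2.21 ± 0.09 in kidney than in left ventricle, where Hadha was at -2.73 ± 0.10. Of the 14 genes of phosphatidylcholine, ethanolamine and serine synthesis, 8 were higher and 1 lower in kidney than in left ventricle, with Chka (2.47 ± 0.10) and Chpt1 (2.02 ± 0.11) among the higher. Each difference named here is a log2 value with its SE and passed an adjusted p of 0.05 in edgeR.

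For sex the lists held calls mainly in kidney, with 20 of 79 genes called by edgeR there (25.3%), 1 in left ventricle (1.27%) and 0 in skeletal muscle, beside 7.58, 0.871 and 1.36% of all genes. With genes kept only at 1 CPM in 4 libraries, 4261 of 20531 genes were called in kidney. The counts were 18 of 19365 in left ventricle and 297 of 17905 in skeletal muscle. In skeletal muscle 10 of the 79 had an unadjusted p under 0.05, and DESeq2 called 2 and limma-voom 0. Gpat3 was higher in female than in male kidney (1.195 ± 0.13, adjusted p = 3.17e-05), as was the ethanolamine kinase gene Etnk1 (1.06 ± 0.09, adjusted p = 2.88e-06). The phosphatidylinositol 4-kinase gene Pi4ka (-1.001 ± 0.10, adjusted p = 9.81e-06) and the J-domain protein gene Dnajc19 (-0.67 ± 0.09, adjusted p = 1.96e-04) were lower in female kidney, as was the phosphatidic acid phosphatase gene Lpin1 (-0.71 ± 0.14, adjusted p = 0.00486). The gene called in left ventricle was Pcyt1b, a gene of phosphatidylcholine synthesis, higher in females (1.24 ± 0.25, adjusted p = 0.0214); DESeq2 called 1 there and limma-voom 0.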

How the data were processed

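The authors deposited whole-number counts per gene for the 24 libraries. STAR 2.7.6a, StringTie 2.1.1 and build GRCm38.p6 are named per the submitters' processing notes, without their roles; the annotation, strand setting and counting step are not given in the sources used here. From these counts, each tissue was fitted on its own for age and sex (8 libraries, additive terms), and tissues were compared in a fit of all 24 libraries, by edgeR 4.0.16 quasi-likelihood F-tests in R 4.3.3 with TMM, filterByExpr, two-sided p and Benjamini-Hochberg adjustment over all genes tested at a threshold of 0.05. All 8 genes passed the low-count filter in each comparison. Mice are the replicates, and p-values of the fits within a tissue and of the permutation tests measure the spread between mice. The main fit of all 24 libraries had no mouse term. Its p-values measure the spread between libraries and take the libraries of a mouse as independent. Libraries totalled 52.6 to 103.8 M counts, and the 8 genes had between 144 and 14652 counts per library. Permutation tests used SciPy 1.17.1.

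Alternatives were DESeq2 1.42.0, limma-voom (limma 3.58.1), RLE size factors, library totals without TMM, no low-count filter, a filter at 1 CPM, removal of the mitochondrially encoded genes, no sex or age term, a single fit of 24 libraries, the mouse as a block, and leaving out each mouse. The mouse names in the titles recur in all 3 tissues, so libraries of 1 name come from the same animal; over 24 pairs of such libraries the correlation of their deviations from group means was -0.21 to 0.41 (median 0.01), above 0.1 in 6. The tests of sex differences between tissues and the longest-transcript lengths were added after seeing the data. The members, gene lists and tests were chosen with earlier results of these data known. Named genes are all 8 members, the 3 most like Cds1 and Cds2 (the 5 most like Cds1 in left ventricle), and from each list, in the comparison described, the leading genes among the up to 4 largest changes past the threshold, or up to 2 with the smallest p; predicted genes and Kbtbd4 were added after their values were seen. Lengths come from GENCODE M21, which matched 54349 of the 55401 gene identifiers, and promoters from RefSeq. The tests were checked on simulated data.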

Additional observations from a re-analysis of the deposited data

Results flagged for a closer look

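The female over male difference of Cds1 stood out because it differed between tissues. It was 0.76 ± 0.15 log2 units (SE) higher in kidney than in left ventricle in edgeR's quasi-likelihood test of that difference, with both females above both males in kidney and below them in left ventricle at each age. This comparison was made after the pattern was seen and uses the left ventricle libraries on which the set was chosen, so it is a description. Tamm41 in 16.5-week kidney had a library far from the others, mouse Y15 at 8.53 CPM beside 9.49 to 9.59 CPM in Y14, Y19 and Y20. Of 54 groups of 4 checked in this way, chance marks about 1 in 20.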

How the results depend on the processing

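Age calls of the members numbered 0 in skeletal muscle and kidney under all alternatives run; the 1 in left ventricle follows from the choice of the set, and its recurrence shows no stability. With the mouse as a replicate block the tissue counts stayed at 4, 7 and 7 members, no member call changed, and the Cds1 sex difference between kidney and left ventricle was 0.76 (edgeR adjusted p = 0.00641). Members called for sex in kidney numbered 0 under DESeq2, limma-voom, RLE size factors, without mitochondrially encoded genes, without the age term and in the single fit of 24 libraries, 2 under library totals, and 0 to 1 when each mouse was left out. For sex in left ventricle the single fit called 1. Under library totals 8 members were called between left ventricle and skeletal muscle, beside 14146 of 46984 genes. The sex difference of kidney against left ventricle was called for 0 to 1 members without each mouse, and that against skeletal muscle for 1 under library totals and for 1 with the 1 CPM filter. Signs changed as follows; the cause was not tested beyond the shift of the median. Library totals gave 0.0060 for Cds1 and 0.013 for Cds2 for age in kidney, 0.24 for Pgs1 and 0.26 for Crls1 between left ventricle and skeletal muscle, and 0.19 for Ptpmt1 between kidney and skeletal muscle. Crls1 between left ventricle and skeletal muscle was 0.0059 under DESeq2, 0.0059 under RLE and 0.013 without a filter. With the 1 CPM filter Taz was -0.058 between left ventricle and skeletal muscle, -0.078 between kidney and left ventricle and -0.14 between kidney and skeletal muscle, and without a filter -0.0018 between kidney and left ventricle. Leaving out each mouse gave -0.010 to 0.182 for Cds2 with age in skeletal muscle, -0.129 to 0.049 for Crls1 between left ventricle and skeletal muscle, and for Taz -0.048 to 0.117 between kidney and left ventricle and -0.018 to 0.176 between kidney and skeletal muscle. The Cds1 share then differed by -4.77 to -3.16 points between left ventricle and skeletal muscle, by -0.704 to 2.48 points with age in skeletal muscle and by -1.31 to 0.926 points with age in kidney; without division by length its age difference in left ventricle was 4.58 points. Of 846 further values, for members given only as ranges, 88 changed sign and 0 passed the threshold. Precision was limited by 4 mice per age, and changes within the intervals given for the members were not detectable.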
